A study of Mus musculus with 12 samples.

Results

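The 8 genes described here, Cyp2b9, Cyp2b13, Cyp3a16, Cyp3a41a, Cyp17a1, Fmo2, Cux2 and A1bg, were listed because continuous growth hormone favours them in mouse liver and hormone pulses hold them down. They were found by gene symbol in the array annotation, and each was taken from its probe set with the highest mean. Of the 8, 7 had a probe set that names no other gene, out of 22180 genes measured in this way. Cyp3a41a was listed on 2 probe sets that each name 4 genes (Cyp3a41b, Cyp3a41a, Cyp3a11 and Cyp3a44), so that no value could be given to it. The values come from 12 samples of liver RNA from male C57BL6 mice, 1 Affymetrix array for each, with array values on the log2 scale. Mice were fed from 6 to 18 weeks of age, with food freely available for 12 weeks, on a diet with 10% of energy from fat (low-fat) or with 45% (high-fat). Each diet was given plain (control) or with 0.5% by weight of MSX, a food grade maple syrup extract enriched in phenols, and each of the 4 groups has 3 arrays labelled as biological replicates. No group carried a genetic change, and whether an array stands for 1 animal or for a pool is not given in the sources used here.

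Male rodents secrete growth hormone in pulses, with little hormone between them, while females secrete it almost continuously. In the liver each pulse activates the transcription factor STAT5, which switches on genes of the male pattern and helps to keep genes of the female pattern silent. Several cytochromes P450, the enzymes that oxidise steroids, fatty acids and drugs, are among the best known genes of either pattern. All mice here were male and growth hormone was not among the measurements, so that the listed property of the 8 genes could not be tested, and the comparisons ask how diet and extract moved them in a male liver.

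Pairs of arrays had correlations of 0.973 to 0.984, and array medians ranged from 4.68 to 4.75. The hepatocyte markers fitted the labelled tissue, with 7 of 8 measured and all 7 above the array median in all 12 arrays. The Y-linked genes Uty, Kdm5d and Eif2s3y were above the array median in all 12 arrays, and Xist, which marks cells with an inactive X chromosome, was below it in all 12 (2.85 to 3.52). Markers of stellate cells and fibroblasts (8 of 8 measured) set 1 array apart, high-fat control replicate 1, where they stood 0.89 log2 units above their own means in the median, against −0.39 to 0.24 in the other 11 arrays. Their summed log2 level was 57.3 to 65.4 in high-fat control, 56.2 to 58.0 in low-fat control, 58.0 to 59.7 in low-fat MSX and 55.3 to 58.1 in high-fat MSX. Lymphocyte markers (5 of 6 measured) had their highest value in the same array, 0.52 above their means, as did cholangiocyte markers (4 of 5 measured, 0.48 above) and Kupffer cell and macrophage markers (7 of 7 measured, 0.55 above), which had their lowest value, −0.64, in high-fat control replicate 3. For several results, the value without high-fat control replicate 1 is given beside the value with it. In whole liver, fewer cells of a type and less RNA per cell cannot be told apart.

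Cyp2b9 and Cyp2b13 are closely related and lie near each other on chromosome 7. Their upstream sequences are shown because both genes were highest in high-fat control. RefSeq promoter windows (GRCm38.p6) were found for 7 of the 8 genes, 9 windows in all. Over the 250 bases before their starts, Cyp2b9 and Cyp2b13 were identical at 248, or 99.2%. The stretches below, both on the plus strand and ending 107 bases before the start in the table, hold both differences, printed in capitals as the substitutions T48C and C104T (the Cyp2b9 base, the position from 1 at the 5′ end, then the Cyp2b13 base). The first is chr7:26173159-26173301 and the second chr7:26061245-26061387.
Cyp2b9: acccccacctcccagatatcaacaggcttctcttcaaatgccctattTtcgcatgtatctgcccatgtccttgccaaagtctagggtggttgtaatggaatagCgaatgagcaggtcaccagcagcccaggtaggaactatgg
Cyp2b13: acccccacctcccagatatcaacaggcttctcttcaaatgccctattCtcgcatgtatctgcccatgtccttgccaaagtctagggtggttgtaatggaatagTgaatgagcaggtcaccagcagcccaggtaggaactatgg
Cyp3a16 and Cyp3a41a were less alike, with 231 identical positions in 254 aligned columns (90.9%).

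A pair of short motifs was searched on both strands of windows of 300 bases, from 250 before to 50 after each start. The STAT5 motif TTCNNNGAA was found in 2 of the 9 windows. These were A1bg at −84 and a window of Fmo2 at 12 after the start. It was found in 8.3% of all 32851 windows. Listed male-pattern genes had it in 4 of 17 windows (23.5%), and other listed female-pattern genes in 3 of 26 (11.5%). The motif ATCAAT, known from HNF6, was found in 3 of the 9 windows, A1bg at −150, Cyp3a16 at −75 and Cyp3a41a at −71. It was found in 7.54% of all windows, in 2 of 17 male-pattern windows (11.8%) and in 5 of 26 other female-pattern windows (19.2%). The upstream sequences of Cyp3a16 and Cyp3a41a are alike, so that their matches are not separate observations. Neither motif was found in the windows of Cyp2b9 or Cyp2b13. A match is a run of letters and not a measured binding site.

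In the first comparison, high-fat control against low-fat control, Cyp2b9 and Cyp2b13 were the 2 members that stood higher on the high-fat diet, with every high-fat control array above every low-fat control array (5.29% of all genes did so), and Cux2 was the 1 that stood lower in that way (6.1% of genes). In the second, the extract on the high-fat diet, the same pair and Fmo2 stood lower with MSX, again with no overlap between the groups (5.51% of genes were lower in that way). Low-fat MSX and low-fat control overlapped in all 7 measured genes (13.9% of genes did not overlap). None of these differences passed the test over all genes, limma with Benjamini-Hochberg adjustment and a threshold of 0.05 on the adjusted p, so 0 of 7 members were called in any of 7 comparisons, where 0% to 0.261% of all genes were.

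**Figure D1:**
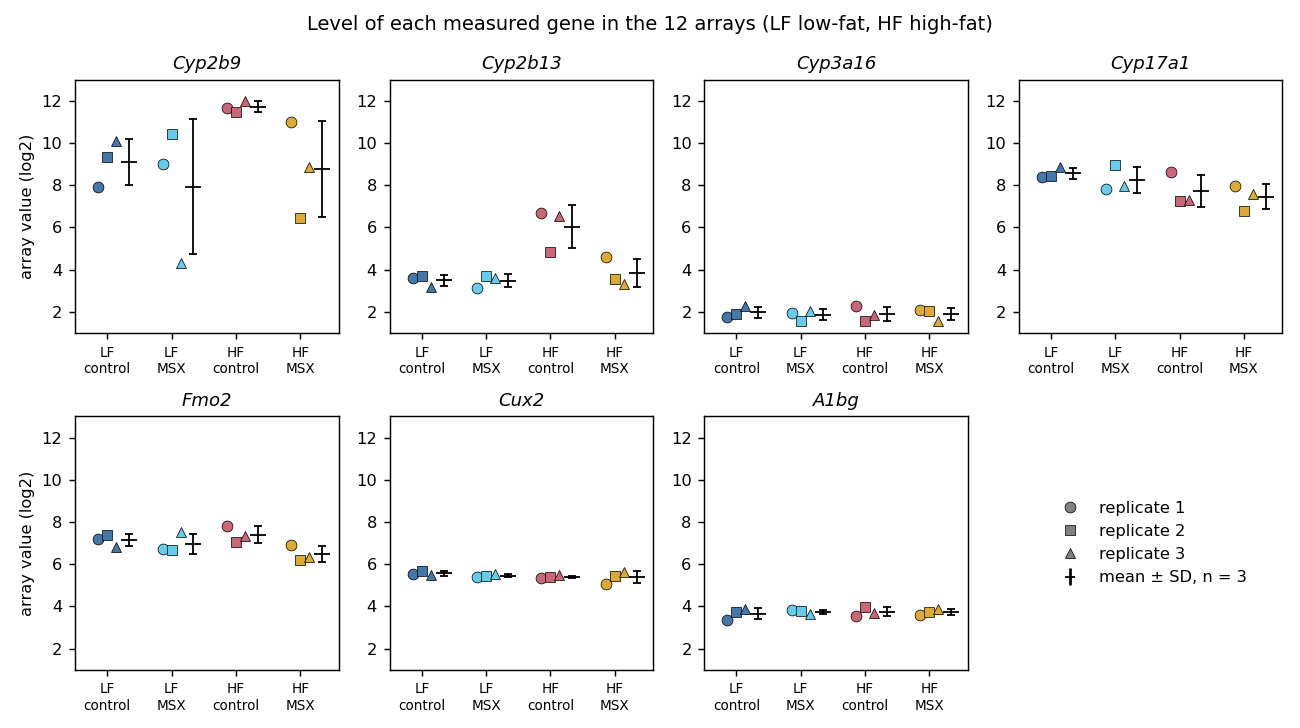
Array value on the log2 scale of each of the 7 measured genes in the 12 arrays, by diet (LF low-fat, HF high-fat) and extract, with the mean and SD of each group of 3 beside the points. Cyp2b9 spans 4.32 to 12.01, Cyp2b13 is high in the 3 high-fat control arrays, and Cyp3a16, Cux2 and A1bg lie in a narrow band in all groups.

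The plot of array values by gene shows how unequal the members were. Cyp2b9, a female-pattern P450 that hydroxylates steroids and fatty acids, was at 7.92, 9.33 and 10.08 in low-fat control. It was at 9.01, 10.45 and 4.32 in low-fat MSX, at 11.66, 11.48 and 12.01 in high-fat control and at 10.99, 6.46 and 8.87 in high-fat MSX. The 3 high-fat control arrays were close together and above the other 9, and the other groups were widely spread, with low-fat MSX replicate 3 and high-fat MSX replicate 2 lowest. Group means were 11.72 ± 0.27 (SD, n = 3) in high-fat control, 9.11 ± 1.10 in low-fat control, 8.77 ± 2.26 in high-fat MSX and 7.92 ± 3.20 in low-fat MSX. The last 3 of these are neighbours that do not differ beyond their spread.

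From the lowest to the highest array, Cyp2b9 spanned 7.69 log2 units, a 206-fold range. Its spread within groups, an SD of 2.04, was exceeded by 2 of the 22180 genes, Dmbt1 with 2.40 and Moxd1 with 2.11, and the median gene had 0.19. Of its variation, 42.0% lay between the 4 groups. Cyp2b9 was 2.61 higher in high-fat control than in low-fat control (SE 1.30, interval of 95% from −0.20 to 5.41, adjusted p = 0.756). High-fat MSX was below high-fat control (difference −2.94, SE 1.30, interval −5.75 to −0.14, adjusted p = 0.695). Leaving out single arrays moved that difference between −4.05 and −1.79, the latter without high-fat MSX replicate 2. Low-fat MSX minus low-fat control was −1.19 (adjusted p = 0.862), and without low-fat MSX replicate 3 it was 0.61, so that 1 array set its sign.

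Cyp2b13, the gene beside it, was at 3.61, 3.68 and 3.17 in low-fat control and at 3.14, 3.72 and 3.60 in low-fat MSX. In high-fat control it was at 6.68, 4.85 and 6.56, and in high-fat MSX at 4.61, 3.57 and 3.34. Only the 3 high-fat control arrays lay above the array median, and all 3 were above the other 9 arrays, with replicate 2 close to the highest of the high-fat MSX arrays. Means were 3.49 ± 0.28 in low-fat control, 3.49 ± 0.31 in low-fat MSX, 6.03 ± 1.02 in high-fat control and 3.84 ± 0.68 in high-fat MSX. The share of variation between groups was 80.1%, and the within-group SD of 0.65 was exceeded by 87 genes.

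High-fat control exceeded low-fat control in Cyp2b13 by 2.54 (SE 0.42, interval 1.63 to 3.45), with an unadjusted p of 4.02e-05 and an adjusted p of 0.0826. High-fat MSX was below high-fat control with a difference of −2.19 (SE 0.42, interval −3.10 to −1.28), with an unadjusted p of 0.000165 and an adjusted p of 0.143. All arrays outside high-fat control were below the array median, so that both differences may understate the change and no linear fold is given. Between the low-fat groups the difference with MSX was 0.00 (interval −0.91 to 0.91). The difference of the 2 extract effects was −2.19 (SE 0.60, unadjusted p = 0.00277, adjusted p = 0.802), so the test did not place the extract difference on one diet apart from the other. Without high-fat control replicate 2, the lowest of its group, Cyp2b13 passed the threshold in 4 comparisons. The diet difference was then 3.13 (adjusted p = 0.00629) and the extract difference on the high-fat diet −2.78 (adjusted p = 0.0128). The average diet effect was 1.74 (adjusted p = 0.0176) and the average extract effect −1.39 (adjusted p = 0.0216). Without high-fat control replicate 1, the array with high stellate cell markers, the first pair of differences was 2.22 (adjusted p = 0.315) and −1.87 (adjusted p = 0.445). Both kept their sign without that array, and the part of those markers in the value with it was not tested.

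The pair was highest in the same group. Over the 12 arrays Cyp2b9 and Cyp2b13 had a Pearson correlation of 0.62, and after subtraction of the group means it was 0.19. Since Cyp2b13 was below the array median in all arrays but 3, its signal gives little room to follow Cyp2b9 from array to array, and whether the pair varied together within groups could not be read. Cyp2b10, the Cyp2b gene best known as a target of the nuclear receptor CAR, lay between 3.72 and 5.70 with a diet difference of 0.07 (adjusted p = 0.988) and a difference with MSX on the high-fat diet of −0.05 (adjusted p = 0.997), which were 0.21 and −0.19 without high-fat control replicate 1. In the low-fat groups Cyp2b23 (difference −0.61, adjusted p = 0.659) and Cyp2b19 (difference −0.36, adjusted p = 0.805) had the lowest p among the 5 Cyp2b genes, of which 0 were called in any comparison. Cyp2b23 and Cyp2b19 were below the array median in all 12 arrays.

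Cyp3a16, a P450 of the steroid- and drug-oxidising CYP3A family, was below the array median in all 12 arrays, at 1.58 to 2.28. Its group means lay within 0.11 of each other in the 4 comparisons of groups, and its groups overlapped throughout. The interval of its diet difference was −0.52 to 0.36, and that with MSX on the high-fat diet −0.45 to 0.43. Of 9 listed Cyp3a genes 7 were measured and 0 called. Cyp3a11, the main adult Cyp3a enzyme and a target of PXR, was at 10.37, 9.43 and 9.74 in high-fat control and at 9.04, 8.90 and 8.69 in high-fat MSX, without overlap. The difference was −0.97 (SE 0.19, adjusted p = 0.159), and −0.71 without high-fat control replicate 1. Over both diets it was −0.70 (SE 0.14, adjusted p = 0.0592), and without that array −0.57, past the threshold (adjusted p = 0.0462). Cyp3a59 had an average extract difference of −0.76 (adjusted p = 0.061).

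**Figure D2:**
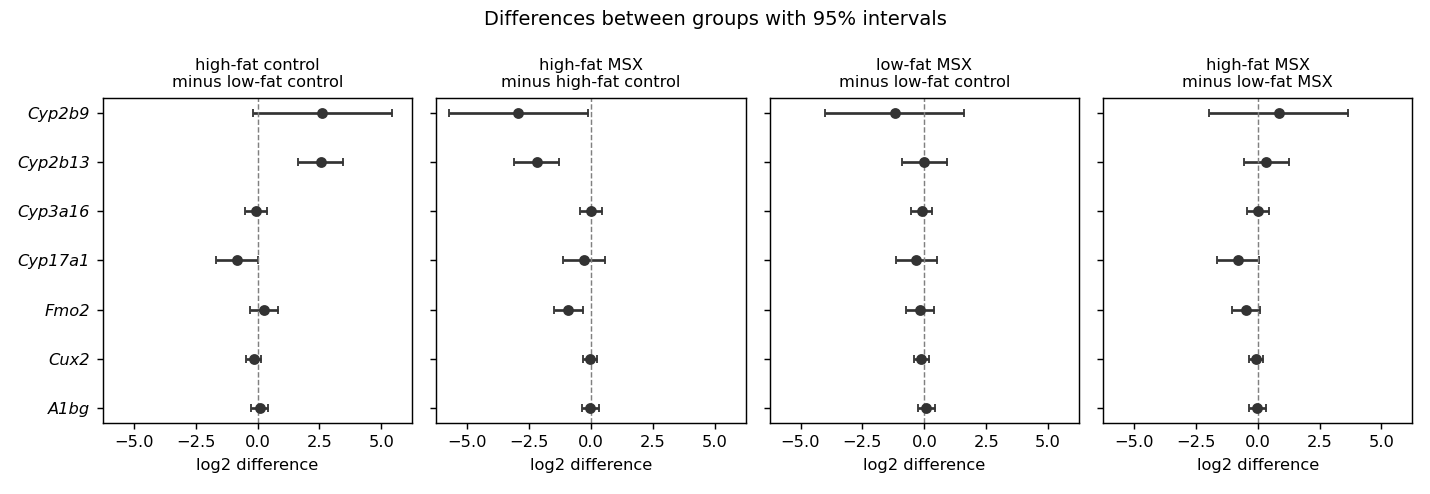
Log2 difference between 2 groups for each measured gene, as the point, with its interval of 95% from the fit over all genes, as the bar, in 4 comparisons. Intervals of Cyp2b13 exclude 0 in the first pair of panels, those of Cyp2b9 are the widest in every panel, and 0 of the 7 genes passed the adjusted threshold.

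The plot of differences with their intervals shows Cyp17a1 as the member furthest below 0 with the diet. Cyp17a1, the steroid 17-hydroxylase and lyase best known from gonad and adrenal gland, was at 8.38, 8.46 and 8.86 in low-fat control and at 7.81, 8.96 and 7.96 in low-fat MSX. It was at 8.62, 7.26 and 7.30 in high-fat control and at 7.96, 6.80 and 7.60 in high-fat MSX. The groups overlapped, with high-fat control replicate 1 at the level of the low-fat arrays. Means were 8.57 ± 0.26, 8.25 ± 0.63, 7.73 ± 0.77 and 7.45 ± 0.59 in that order. High-fat control was below low-fat control (difference −0.84, SE 0.39, adjusted p = 0.733), and without high-fat control replicate 1 the difference was −1.29 (adjusted p = 0.566). Averaged over control and MSX the diet difference was −0.82 (SE 0.27, interval −1.41 to −0.22, adjusted p = 0.681). With MSX the difference was −0.28 on the high-fat diet and −0.32 on the low-fat diet, and the former was 0.17 without high-fat control replicate 1. Among 5 adrenal and gonad markers, Cyp11a1, Cyp11b1 and Cyp11b2 were below the array median in all 12 arrays, while Cyp21a1 was above it in all 12 (4.75 to 6.18) and Star in 11 (4.60 to 5.70). The summed log2 level of the 5 was 21.2 to 22.3 in low-fat control, 21.5 to 23.9 in low-fat MSX, 20.7 to 22.6 in high-fat control and 22.1 to 22.7 in high-fat MSX, and its part in Cyp17a1 was not tested. Of 9 listed partners of Cyp17a1 in steroid synthesis 8 were measured and 0 called. Fdx1, the ferredoxin that feeds electrons to mitochondrial P450s, had a difference of 0.39 with MSX on the high-fat diet (adjusted p = 0.647).

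Fmo2, a flavin-containing monooxygenase that oxidises nitrogen and sulfur in drugs, was at 7.21, 7.40 and 6.82 in low-fat control and at 6.71, 6.69 and 7.52 in low-fat MSX. It was at 7.83, 7.06 and 7.32 in high-fat control and at 6.93, 6.20 and 6.36 in high-fat MSX. All 3 high-fat MSX arrays were below all 3 high-fat control arrays, and the other groups overlapped. The difference with MSX on the high-fat diet was −0.91 (SE 0.27, interval −1.48 to −0.33, unadjusted p = 0.00452, adjusted p = 0.527). It was −0.70 without high-fat control replicate 1. Its difference was −0.17 on the low-fat diet (adjusted p = 0.905), the difference of the 2 extract effects −0.74 (adjusted p = 0.955), and the diet difference 0.26 (adjusted p = 0.907). Leaving out single arrays moved the first from −0.44 (without low-fat MSX replicate 3) to −0.028. It moved the last from 0.046 (without high-fat control replicate 1) to 0.43 (without high-fat control replicate 2), and the difference of extract effects from −0.95 to −0.47. Of 5 Fmo genes 4 were measured and 0 called, and all 4 were below 0 with MSX on the high-fat diet. Fmo5, a further family member, had a difference of −0.33 there (SE 0.14, adjusted p = 0.686), also without overlap.

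Cux2, a homeobox repressor that in female liver holds down male-pattern genes, was at 5.51, 5.70 and 5.50 in low-fat control and at 5.37, 5.41 and 5.46 in high-fat control. The high-fat control arrays were lower without overlap but only just, with their highest at 5.46 and the lowest low-fat control array at 5.50. The difference of the means was −0.16 (interval −0.45 to 0.14, adjusted p = 0.888). In the MSX groups Cux2 lay between 5.08 and 5.63. Its relative Cux1 was not called either. A1bg, a secreted immunoglobulin-like plasma protein gene of the female pattern, was below the array median in all 12 arrays, at 3.36 to 3.99. Its largest difference among the 4 comparisons of groups was 0.09, with the diet (interval −0.25 to 0.43).

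As a set, 4 of 7 members were above 0 with the diet and 3 below, and all 7 were below 0 with MSX on the high-fat diet. In that comparison Cyp3a16 was above 0 after array centring, and Cyp3a16 and Cux2 after quantile normalization. Leaving out single arrays also turned signs there, with highest values of 0.18 for Cyp3a16, 0.17 for Cyp17a1, 0.12 for Cux2 and 0.093 for A1bg. The members' median diet difference was 0.09 (−0.059 to 0.13 on leaving out single arrays, so that its sign turns), against −0.00 over all genes. There 2 members of opposite sign had an unadjusted p under 0.05, Cyp2b13 above 0 and Cyp17a1 below, where 6.78% of all genes did. Of the genes tested, 0.018% were called with the diet. With MSX on the high-fat diet the median of the members was −0.28, against 0.01 over all genes. There 3 members had an unadjusted p under 0.05, against 6.99% of genes, and 3 stood lower without overlap, against 5.51% of genes. The share of genes called was 0.0361%. With MSX on the low-fat diet the median was −0.12, 0 members had an unadjusted p under 0.05 (8.05% of genes) and 0.158% of genes were called. Between the MSX groups 0 members and 0% of genes were called, with 0 members and 1012 genes (4.56%) at an unadjusted p under 0.05. For the difference of the 2 extract effects 0% of genes were called, with 1 member, Cyp2b13, and 1130 genes (5.09%) at an unadjusted p under 0.05. The average diet effect called 0.0225% of genes and the average extract effect 0.261%, with 2 and 3 members at an unadjusted p under 0.05, against 5.94% and 9.66% of genes. The 2 were again Cyp2b13, above 0, and Cyp17a1, below 0. The 3 were Cyp2b9, Cyp2b13 and Fmo2, all below 0. The first and the second comparison share the high-fat control arrays, so that opposite signs in them are not separate observations. The members were also chosen with earlier results of these data known.

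Other female-pattern genes were read from a list of 28. Like the lists below, it was chosen with earlier results of these data known, so that its counts are no independent test. Of the 28 genes, 23 were measured. With the diet their median was 0.19, and 7 were higher without overlap, against 5.29% of all genes, with 0 called. That median was 0.054 without low-fat control replicate 3, 0.11 without high-fat control replicate 1 and 0.35 without low-fat control replicate 2. High-fat MSX minus high-fat control was below 0 in 17 of 23 and above 0 in 6, with a median of −0.41. Without overlap, 12 were lower and 1 higher, against 5.51% and 6.7% of all genes, and 0 were called. Cyp2c39, a P450 that hydroxylates retinoic acid, had the pattern of Cyp2b13, at 7.04, 6.70 and 6.39 in high-fat control, 6.07, 4.84 and 4.97 in high-fat MSX and 5.18 to 5.63 in the 6 low-fat arrays. Its differences were 1.35 with the diet (SE 0.26, adjusted p = 0.174) and −1.42 with MSX on the high-fat diet (SE 0.26, adjusted p = 0.124). Without high-fat MSX replicate 1, the highest of its group, it was the 1 gene of the list that passed in 4 comparisons, both of these among them. Hao2, a peroxisomal oxidase of hydroxy fatty acids, was below the array median in all 12 arrays (2.60 to 4.32). Its difference with MSX on the high-fat diet was −1.05 (adjusted p = 0.189). Vldlr, the receptor for very low density lipoprotein, had a difference of 0.99 with the diet (adjusted p = 0.396). The median was −0.02 with MSX on the low-fat diet (12 below 0 and 11 above, and −0.058 to 0.10 on leaving out single arrays), with 0 called. There Slc16a5, a monocarboxylate transporter, had the difference −1.47 (adjusted p = 0.417), and Acot3, a peroxisomal thioesterase, −1.36 (adjusted p = 0.396). The average extract effect of Slc16a5 was −1.62 (adjusted p = 0.0635), and it passed the threshold without high-fat control replicate 1 (−1.27, adjusted p = 0.0262) or replicate 2. Its difference with MSX on the high-fat diet was −1.78, and −1.08 without replicate 1.

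Male-pattern genes, the set that pulses switch on, had medians of the opposite sign in the diet comparison and with MSX on the high-fat diet. This list too was chosen with earlier results of these data known, so that its counts are no independent test. All 22 listed genes were measured, and with MSX on the high-fat diet 21 were above 0 and 17 higher without overlap (6.7% of all genes), with a median of 0.84. One of them was called. Hsd3b5, a steroid reductase of male mouse liver, was at 7.69, 7.78 and 8.34 in high-fat control and at 9.80, 10.66 and 9.96 in high-fat MSX. It rose by 2.21 (SE 0.23, adjusted p = 0.00239). With the diet the median was −0.41 (−0.22 without high-fat control replicate 1) and 9 genes were lower without overlap (6.1% of all genes), with 0 called. For MSX on the low-fat diet 20 of the 22 were above 0 and 2 below, with a median of 0.68 and 0 called. There 6 were higher and 0 lower without overlap (13.9% of all genes did not overlap, in either direction). Leaving out low-fat MSX replicate 3 gave a median of 0.36. Over both diets Hsd3b5 (average extract effect 1.59, adjusted p = 0.000748), Nudt7 (a peroxisomal coenzyme A hydrolase, 0.94, adjusted p = 0.00818) and Cyp2u1 (a fatty acid hydroxylase, 0.82, adjusted p = 0.032) rose. Leaving out single arrays gave 2 to 5 called male-pattern genes there, with Hsd3b5 and Nudt7 among them each time. Cyp2u1 was among them in 4 of those 12 fits, each without replicate 3 of a group, and in the fit without high-fat control replicate 1 it was at 0.76 (adjusted p = 0.0826).

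**Figure D3:**
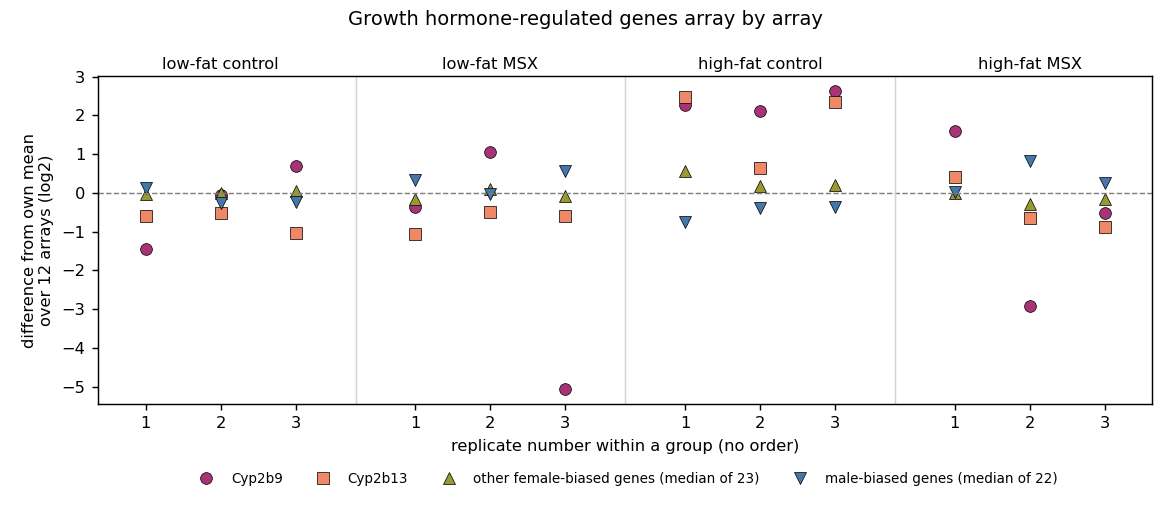
Difference of each array from the mean over all 12 arrays, in log2 units, for Cyp2b9, Cyp2b13, and the medians of 23 other female-pattern genes and 22 male-pattern genes. In the 3 high-fat control arrays both Cyp2b genes and the female-pattern median lie above 0 and the male-pattern median lies below 0, while low-fat MSX replicate 3 and high-fat MSX replicate 2 pair the lowest Cyp2b9 with the highest male-pattern medians.

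The plot of these lists array by array sets the members beside the male-pattern genes. The male-pattern median was −0.75, −0.40 and −0.37 in high-fat control and 0.03, 0.82 and 0.26 in high-fat MSX. It was 0.12, −0.27 and −0.25 in low-fat control and 0.33, −0.02 and 0.56 in low-fat MSX. The highest values, 0.82 and 0.56, were those of high-fat MSX replicate 2 and low-fat MSX replicate 3, the arrays with the lowest Cyp2b9. The other female-pattern genes had medians of 0.55, 0.17 and 0.19 in high-fat control and 0.00, −0.30 and −0.16 in high-fat MSX, with no overlap. Their medians were −0.03, −0.01 and 0.04 in low-fat control and −0.15, 0.09 and −0.07 in low-fat MSX. By this median low-fat MSX replicate 3, the array with the lowest Cyp2b9, was thus not the lowest of its group. By the summed log2 level of the same 23 genes it was the lowest of its group, at 122.1 against 127.3 and 134.1 in replicates 1 and 2. Stellate cell and fibroblast markers were at 0.89, −0.15 and 0.00 in the same high-fat control arrays, and their part in the female-pattern median was not tested.

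The genes that carry the hormone signal were looked at next. A list of 17 held the growth hormone receptor, its kinase, the STAT5 factors, and their inhibitors and targets. It also held Bcl6, which is in the male-pattern list too, and the transcription factors Onecut1, Foxa1, Foxa2, Hnf4a, Cebpa and Cebpb. All 17 were measured, and 0 were called in any of the 7 comparisons. Igf1, the main growth factor made under growth hormone, was lower without overlap in high-fat control, at 9.96, 10.37 and 10.28 against 10.75, 10.81 and 10.51 in low-fat control (difference −0.49, SE 0.16, adjusted p = 0.555). The difference was −0.37 when high-fat control replicate 1 was left out. Bcl6, a repressor that competes with STAT5 for its sites, had a difference of 1.55 with the diet (SE 0.64, adjusted p = 0.683), with overlapping groups. Foxa1, a pioneer factor of liver genes, had a difference of 0.38 with MSX on the high-fat diet (adjusted p = 0.608), and Stat5a one of −0.30 (adjusted p = 0.75). On the low-fat diet Jak2, the receptor's kinase, had a difference of 0.35 (adjusted p = 0.447). Genes of CAR and PXR, receptors that also drive Cyp2b and Cyp3a genes, numbered 18, of which 16 were measured and 0 called. Their median was 0.01 with the diet, −0.24 with MSX on the high-fat diet and −0.22 on the low-fat diet. With MSX on the high-fat diet 5 of the 16 were lower without overlap and 1 higher, against 5.51% and 6.7% of all genes. For the average extract effect 9 of the 16 had an unadjusted p under 0.05, against 9.66% of genes. Nr1i3, which encodes CAR, had a difference of −0.52 with MSX on the low-fat diet (adjusted p = 0.434).

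The genes whose array values ran most like those of a member were ranked by Pearson correlation over the 12 arrays, among 19304 genes with a settled name. For Cyp2b9 they were Abcd2 (0.96), a peroxisomal transporter of very long chain fatty acids, Hpgd (0.93), a prostaglandin dehydrogenase, and Cyp2c38 (0.91), a P450 of the list of other female-pattern genes. After subtraction of the group means the values were 0.94, 0.94 and 0.87, with the spread of Cyp2b9 widest in low-fat MSX (SD 3.20). Cyp2c38 did not follow Cyp2b9 within each group. In high-fat control it was at 10.35, 10.58 and 10.44, highest where Cyp2b9 was lowest. In high-fat MSX it was at 9.43, 8.71 and 8.06, lowest in replicate 3, while Cyp2b9 was lowest in replicate 2. Like Cyp2c38, Abcd2 is in the list of other female-pattern genes, so that both are already counted in the medians of that list. Abcd2 was at 5.03 in low-fat MSX replicate 3 and at 6.96 in high-fat MSX replicate 2, its lowest 2 values, and reached 9.21 in high-fat control. For Cyp2b13 the first gene was Slc22a27, an organic anion transporter, with 0.96, or 0.81 after subtraction of the group means. It was at 5.57, 3.77 and 4.95 in high-fat control, at 3.52, 2.22 and 2.65 in high-fat MSX and at 2.26 to 2.75 in the 6 low-fat arrays, and its diet difference was 2.34 (SE 0.39, adjusted p = 0.0826). Outside high-fat control it was below the array median in every array, like Cyp2b13. Nupr1 (0.89) and Wwtr1 (0.89) came next. Fmo2 ran most like Tmem45b (0.97), and Cyp17a1 like Evc2 (0.90) and Fads2 (0.90), the latter a fatty acid desaturase. These are the highest of many correlations, over arrays that share their groups, and are given as descriptions.

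Genes that ran against Cyp2b9 were looked up after the values were seen. Moxd1, a monooxygenase related to dopamine hydroxylase, had a correlation of −0.94 (−0.94 after subtraction of the group means). It was at 7.66, 6.74 and 4.92 in low-fat control and 7.96, 4.35 and 10.50 in low-fat MSX. In high-fat control it was at 4.40, 5.20 and 3.70, and in high-fat MSX at 5.27, 10.06 and 7.96. Its 2 highest arrays were those with the lowest Cyp2b9, and its difference with MSX on the high-fat diet was 3.33 (SE 1.35, adjusted p = 0.661). Gstp1, a glutathione transferase, had a correlation of −0.94 with Cyp2b9 and ranged from 11.66 to 12.77. Moxd1 and Gstp1 are both in the list of male-pattern genes, so that they are already counted in its medians above.

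**Figure D4:**
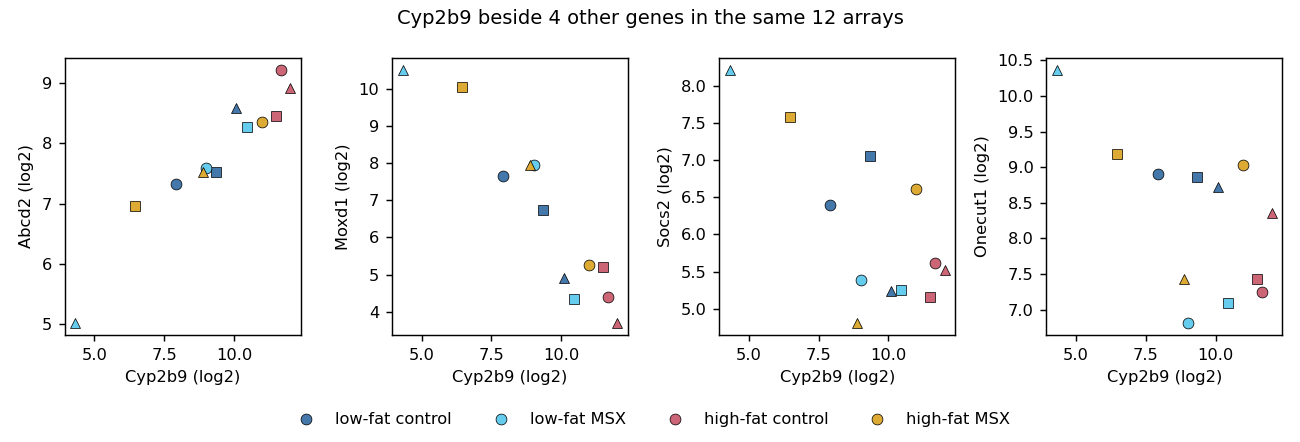
Array values on the log2 scale of Abcd2, Moxd1, Socs2 and Onecut1 against those of Cyp2b9 in the 12 arrays, coloured by group, with circles, squares and triangles for replicates 1, 2 and 3. Low-fat MSX replicate 3, with Cyp2b9 at 4.32, has the lowest Abcd2 (5.03) and the highest Moxd1 (10.50), Socs2 (8.22) and Onecut1 (10.36).

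The plots of Cyp2b9 against other genes include Socs2 and Onecut1, which were also chosen after their values were seen. Both were in the list of growth hormone signalling genes and among the 10 genes with the largest spread within groups (SD 1.19 and 1.14). Of those 10, Dmbt1, Serpina4-ps1, Saa2, Gm3893, Rgs16 and Mir122 were not set against Cyp2b9. Socs2, an inhibitor of growth hormone signalling that is itself induced through STAT5, was at 8.22 in low-fat MSX replicate 3 and at 7.58 in high-fat MSX replicate 2. These were its highest arrays and again those with the lowest Cyp2b9, and the other 10 lay between 4.81 and 7.06. Onecut1, which encodes HNF6, was at 10.36 in the first of these arrays and at 9.19 in the second, and the other 10 lay between 6.81 and 9.02. Cish, a STAT5-induced inhibitor of the same family as Socs2, was at 6.74 in low-fat MSX replicate 3, its highest array, but at 5.08 in high-fat MSX replicate 2. Group differences of Socs2 were not called (0.90 with MSX on the high-fat diet, adjusted p = 0.88).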

How the data were processed

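Liver RNA was extracted with Trizol, per the labels' protocols. Per the submitters' processing notes, the authors used the Transcriptome Analysis Console, and its log2 probe set values were deposited. The sources used here give neither its version nor its normalization nor a genome build. No value was transformed further, and no array was dropped. Of 41345 probe sets, 23521 carried 1 gene symbol, 1814 several and 16010 were not listed in the platform annotation. The first kind gave 22180 genes, 1 probe set each, with the highest mean. Group means of all 12 arrays were fitted with limma 3.58.1 in R 4.3.3 (eBayes, 8 residual and 5.18 prior degrees of freedom, two-sided), with Benjamini-Hochberg adjustment over all 22180 genes in each of 7 comparisons. Differences are the first group minus the second, and the 3 arrays of a group limit the precision. The smallest two-sided p of an exact permutation test on 2 such groups is 0.1. The procedure was tested on simulated data. Beside the 8 members, the genes named were, for each list and comparison, those called or else among the 2 of lowest p, and the 3 genes most like a member. Genes outside the rule are marked as chosen after their values were seen; Cyp2b10, Cux1, Cish and the marker genes are in the lists but outside it for the values given. The members and lists were chosen with earlier results of these data known. Promoter windows came from RefSeq, and Cyp17a1 had no entry. Alternatives were array centring, quantile normalization, a filter on dim genes, averaged probe sets, trend and robust eBayes, the groups of one comparison, a replicate block and leaving out each array.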

Additional observations from a re-analysis of the deposited data

How the results depend on the processing

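The number of members called stayed at 0 of 7 in all 7 comparisons under array centring, quantile normalization, the filter on dim genes, averaged probe sets, trend and robust eBayes, the groups of one comparison and the replicate block. Each measured member has 1 probe set, so that another probe set could not be tried, and the last 3 comparisons need all groups. The filter on dim genes kept 5 members, without Cyp3a16 and A1bg. Leaving out single arrays gave 0 to 1 members called with the diet, with MSX on the high-fat diet, and for the average diet and average extract effects, and the 1 was Cyp2b13 without high-fat control replicate 2. Replicate numbers did not pair the arrays: deviations of 18 same-numbered pairs correlated at −0.13 to 0.11, with 2 over 0.1, and 5 of 12 arrays correlated best with their own number. With the replicate block 0 members were called, and 5, 5, 20 and 43 genes in place of 4, 8, 35 and 58 with the diet, with MSX on the high-fat diet, with MSX on the low-fat diet and for the average extract effect.

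Signs of single members turned in these cases. With MSX on the high-fat diet, Cyp3a16 was at 0.012 after array centring and 2.5e-06 after quantile normalization, and Cux2 at 0.0026 after the latter. Low-fat MSX minus low-fat control of Cyp2b13 was at 0.023 and 0.032. Ranges on leaving out single arrays were, with the diet, −0.26 to 0.085 for Cyp3a16 and −0.059 to 0.20 for A1bg. With MSX on the high-fat diet they were −0.17 to 0.18 for Cyp3a16, −0.53 to 0.17 for Cyp17a1, −0.13 to 0.093 for A1bg and −0.16 to 0.12 for Cux2. For MSX on the low-fat diet they were −2.45 to 0.61 for Cyp2b9, −0.16 to 0.17 for Cyp2b13, −0.22 to 0.038 for Cyp3a16 and −0.069 to 0.19 for A1bg. Between the MSX groups they were −0.95 to 2.11 for Cyp2b9, −0.031 to 0.60 for Cyp2b13, −0.12 to 0.18 for Cyp3a16, −0.19 to 0.083 for Cux2 and −0.093 to 0.057 for A1bg. For the difference of the 2 extract effects they were −0.057 to 0.29 for Cyp3a16, −0.21 to 0.49 for Cyp17a1, −0.038 to 0.24 for Cux2 and −0.22 to 0.042 for A1bg. For the average diet effect they were −0.12 to 0.056 for Cyp3a16, −0.22 to 0.026 for Fmo2 and −0.038 to 0.093 for A1bg. For the average extract effect they were −0.14 to 0.031 for Cyp3a16, −0.14 to 0.0022 for Cux2 and −0.048 to 0.087 for A1bg. The cause was not tested.

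Counts of all genes called moved more. Across the other settings they were 4 to 11 with the diet, 2 to 28 and 10 to 77 with MSX on the high-fat and low-fat diets, 5 to 11 for the average diet effect and 43 to 151 for the average extract effect. On leaving out single arrays they were 1 to 7, 2 to 10, 6 to 28, 1 to 7 and 34 to 63. The median of the members with MSX on the high-fat diet was −0.91 with the filter on dim genes, which leaves 5 of the 7, and −0.53 to −0.074 on leaving out single arrays. With the diet the median was 0.26 with that filter, and on leaving out single arrays −0.059 to 0.13. For MSX on the low-fat diet it was −0.16 to −0.054 on leaving out single arrays. Leaving out arrays for the gene lists and their genes was chosen after seeing the data. A signal below the array median limits Cyp3a16 and A1bg, and in most arrays Cyp2b13.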
